A study of Mus musculus with 16 samples.

Results

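The alcohol and aldehyde dehydrogenases described here are 10 genes, taken by name from the 48158 genes of the deposited table: Adh1, Adh4, Adh5, Aldh1a1, Aldh1l1, Aldh2, Aldh3a2, Aldh4a1, Aldh6a1 and Aldh8a1. All 10 passed the filter on low values, which kept 11790 genes with at least 1 FPKM (fragments per kilobase of transcript, scaled to library size: a level per length) in at least 2 libraries. The annotation holds 18 other Adh and Aldh genes, which are described beside them. The 10 genes and the lists below were chosen with earlier results of these data known. Their counts, set against the 18 genes or against the shares of all genes, are therefore descriptions. The study compared hepatocytes of FVB mice, an inbred strain, on ordinary chow with hepatocytes of FVB mice fed DDC for 4 weeks. DDC is a dihydrocollidine compound that blocks haem synthesis and injures bile ducts. All cells were isolated with cycloheximide, which holds ribosomes on mRNA, in both diets. From each diet the libraries hold polyadenylated RNA of the cytoplasm and of 3 sucrose gradient fractions, namely monosomes (1 ribosome), light polysomes (2 to 4 ribosomes) and heavy polysomes (more than 5 ribosomes). There were 16 libraries, 2 for each of 8 groups. No transgene or knockout is named in the labels. They give neither age nor sex and do not say whether the libraries of a group come from separate animals, so the p-values measure the spread between these libraries only.

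Alcohol dehydrogenases oxidise alcohols to aldehydes with NAD as the acceptor, and aldehyde dehydrogenases oxidise the aldehydes on to acids. The liver holds most of the body's capacity for both steps, which clear ethanol, formaldehyde and lipid aldehydes and supply retinoic acid from retinol. Several aldehyde dehydrogenases do not act on dietary alcohols at all but finish the breakdown of an amino acid, a pyrimidine, a fatty alcohol or a folate.

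The 4 chow libraries of replicate 1 are called the first preparation here. Their labels name CH1 in cytoplasm and CH1_CH2 in the fractions. They stand apart from the other 12. They held Xist at 0.0394 to 2.44 FPKM and the Y-linked genes Ddx3y, Eif2s3y, Uty and Kdm5d at 0. The other 12 held Xist at 0 and Eif2s3y at 4.20 to 34.5 FPKM. No DDC library held Xist without the Y-linked genes. This pattern differs by sex, so diet and sex cannot be fully told apart in the comparisons of the diets. Results that lose their call without the 4 chow libraries of the first preparation are given with both values. Of the hepatocyte markers, every library lists Alb at 0, and some groups also list Serpina1a, Apoa1, Apoa2 or Ttr at 0. The summed level of the 15 hepatocyte markers in the table was 35351 and 40916 in chow cytoplasm. Sequenced depth is unknown, since the values were scaled between libraries before deposit.

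Most of the 10 genes were lower on DDC in each RNA pool. A gene is called here where its Benjamini-Hochberg adjusted p from limma, over all genes tested, is below 0.05. Of the 10, 4 were called lower in all 4 pools: Adh5, Aldh4a1, Aldh6a1 and Aldh8a1. The steepest fall was that of Aldh6a1, whose chow mean was 5.17 times its DDC mean in cytoplasm, 6.30 times on monosomes, 4.75 times on light polysomes and 4.23 times on heavy polysomes. Aldh2 was the only member called higher, on monosomes, where Adh1 and Aldh1l1 also had values above 0 (0.14 and 0.35) that were not called. Adh1, Aldh1l1 and Aldh2 were called lower in no pool. In cytoplasm 4 of the 10 members were called lower and 0 higher, against 9.66% of all tested genes called lower and 12.7% called higher. On monosomes 5 members were called lower and 1 higher, against 15.9% and 21.1% of all genes. On light polysomes 7 were called lower and 0 higher, against 13.5% and 16.6%. On heavy polysomes 5 were called lower and 0 higher, against 10.9% and 13.9%. In the 3 pools other than monosomes all 10 changes were below 0, so that 0 members rose at an unadjusted p below 0.05 by limma, although with other scalings of the libraries Adh1, Aldh1l1 and Aldh2 turned positive in some of these pools. The median log2 change of the 10 members, DDC minus chow on the log2(FPKM + 1) scale, was -0.999 in cytoplasm, -0.93 on monosomes, -1.30 on light polysomes and -1.01 on heavy polysomes. Over all tested genes the medians were 0.01, 0.04, 0.01 and 0.02 in the same order. Scaling all libraries to equal totals moved the medians of all genes to 0.18, 0.25, 0.24 and 0.29 and those of the members to -0.80, -0.63, -0.97 and -0.51. Under it the calls of Adh4 and Aldh8a1 on heavy polysomes, of Aldh1a1 on light polysomes and of Aldh4a1 on monosomes and both polysome pools were lost (adjusted p = 0.196, 0.175, 0.0729, 0.161, 0.156 and 0.106), which left 2 members called on heavy polysomes. Both DDC libraries lay below both chow libraries for 8 members in cytoplasm, 7 on monosomes, 7 on light polysomes and all 10 on heavy polysomes. The share of all genes with such a gap was not counted, so these numbers only describe the members. With the replicate number as a block nested in diet, 7, 8, 7 and 6 members were called in the 4 pools in the same order. The log2 changes stay as they are under this block, which takes differences between preparations of a diet out of the spread. In DDC it joins cytoplasm and fractions whose preparation names differ, and in chow ones whose names overlap only in part. With DDC cytoplasm not blocked, an alternative chosen after seeing the data, the counts were 8, 8, 7 and 7. The diets share no preparation, so neither block pairs them.

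**Figure D1:**
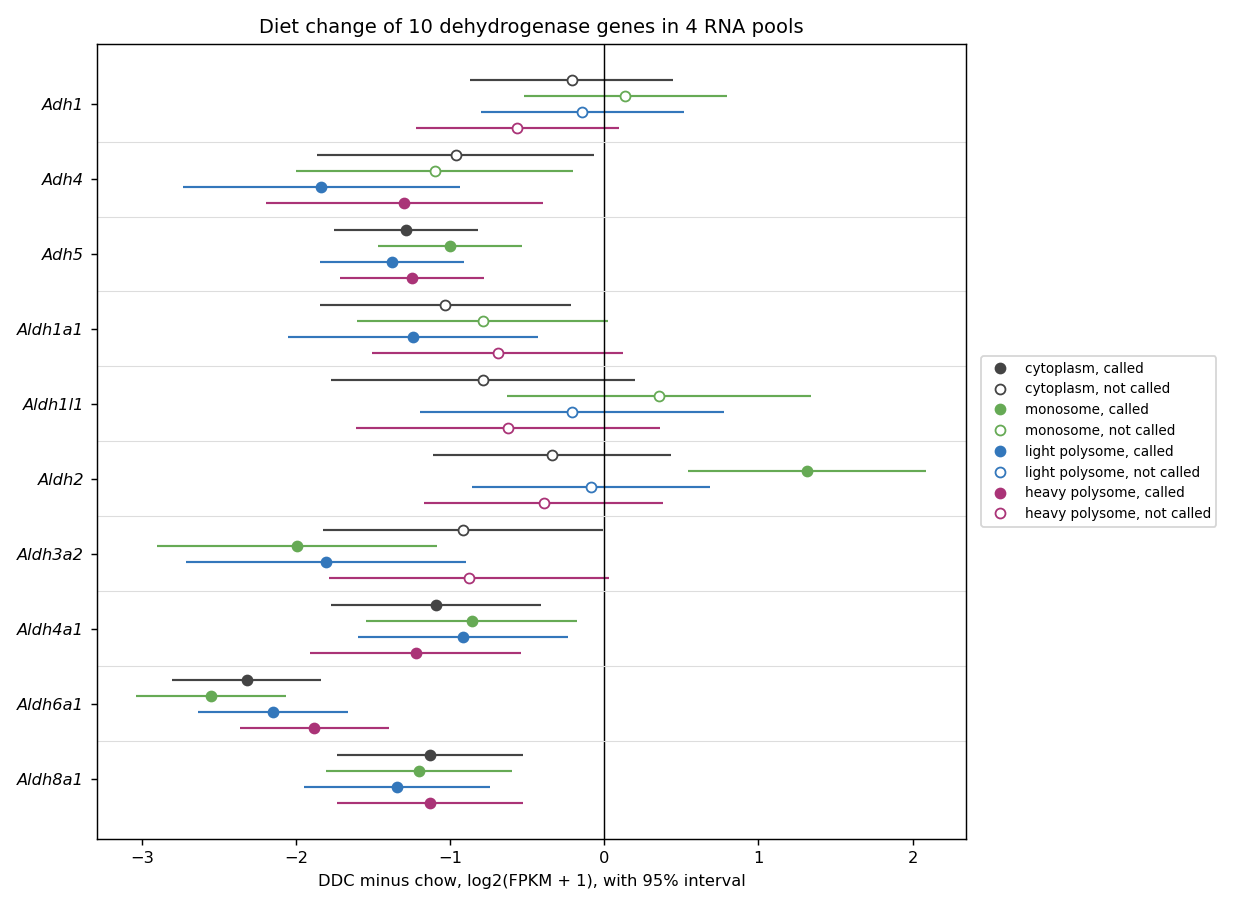
DDC minus chow on the log2(FPKM + 1) scale for each of the 10 genes (rows), with its 95% interval, in cytoplasm, monosomes, light polysomes and heavy polysomes (colours); filled points were called at an adjusted p below 0.05. Aldh6a1 lies between -2.55 and -1.88 in all 4 pools, and the only filled point to the right of 0 is Aldh2 on monosomes, at 1.32.

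Markers of other liver cell types moved with the diet, and in bulk samples fewer cells of a type and less RNA per cell cannot be told apart. Summed over 14 macrophage markers the level was 133 to 186 FPKM in chow cytoplasm and 775 to 1158 FPKM in DDC cytoplasm, and 11 of 14 tested markers were called higher there. The 12 cholangiocyte markers summed to 42.1 to 47.3 FPKM on chow and 342 to 455 FPKM on DDC in cytoplasm, with 6 of 8 tested markers called higher. In chow cytoplasm Cftr, Cldn7 and Epcam of that list were at 0. The 14 stellate cell and fibroblast markers summed to 29.3 to 48.0 and 136 to 158 FPKM, with 8 of 13 called higher and with Acta2 and Timp1 at 0 on chow. The 12 endothelial markers summed to 53.7 to 56.3 and 52.2 to 70.7 FPKM, with 0 of 10 called by limma and 1 lower at an unadjusted p below 0.05. Hepatocyte markers summed to 23131 to 35890 FPKM in DDC cytoplasm, with 2 of 13 called lower. In the other 3 pools 12 or 13 macrophage, 6 cholangiocyte and 11 stellate cell and fibroblast markers were called higher, and 1, 2 and 3 endothelial markers on monosomes, light and heavy polysomes. The hepatocyte sum was lower on DDC monosomes, at 37777 to 42945 against 50059 to 53213 FPKM on chow. It was higher on DDC light polysomes, at 38100 to 47192 against 14620 to 15162 FPKM, and on DDC heavy polysomes, at 54919 to 101981 against 37285 to 40865 FPKM. These sums hold Serpina1a, listed at 0 in every chow group, and Apoa1, Apoa2 and Ttr, listed at 0 in some groups. Of the tested hepatocyte markers 3, 4 and 3 were called lower and 2, 1 and 0 higher in these pools by limma, with 0 on heavy polysomes also at an unadjusted p below 0.05. The part of these shifts in the changes of the dehydrogenase genes was not tested. As a share of each library's summed FPKM, the 10 members together made up 0.781% ± 0.00957 (SD, n = 2) of chow cytoplasm and 0.612% ± 0.0665 (SD, n = 2) of DDC cytoplasm. The shares were 0.312% ± 0.00525 and 0.429% ± 0.184 on monosomes, 0.415% ± 0.00272 and 0.411% ± 0.0645 on light polysomes and 0.8498% ± 0.0782 and 0.799% ± 0.0399 on heavy polysomes.

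**Figure D2:**
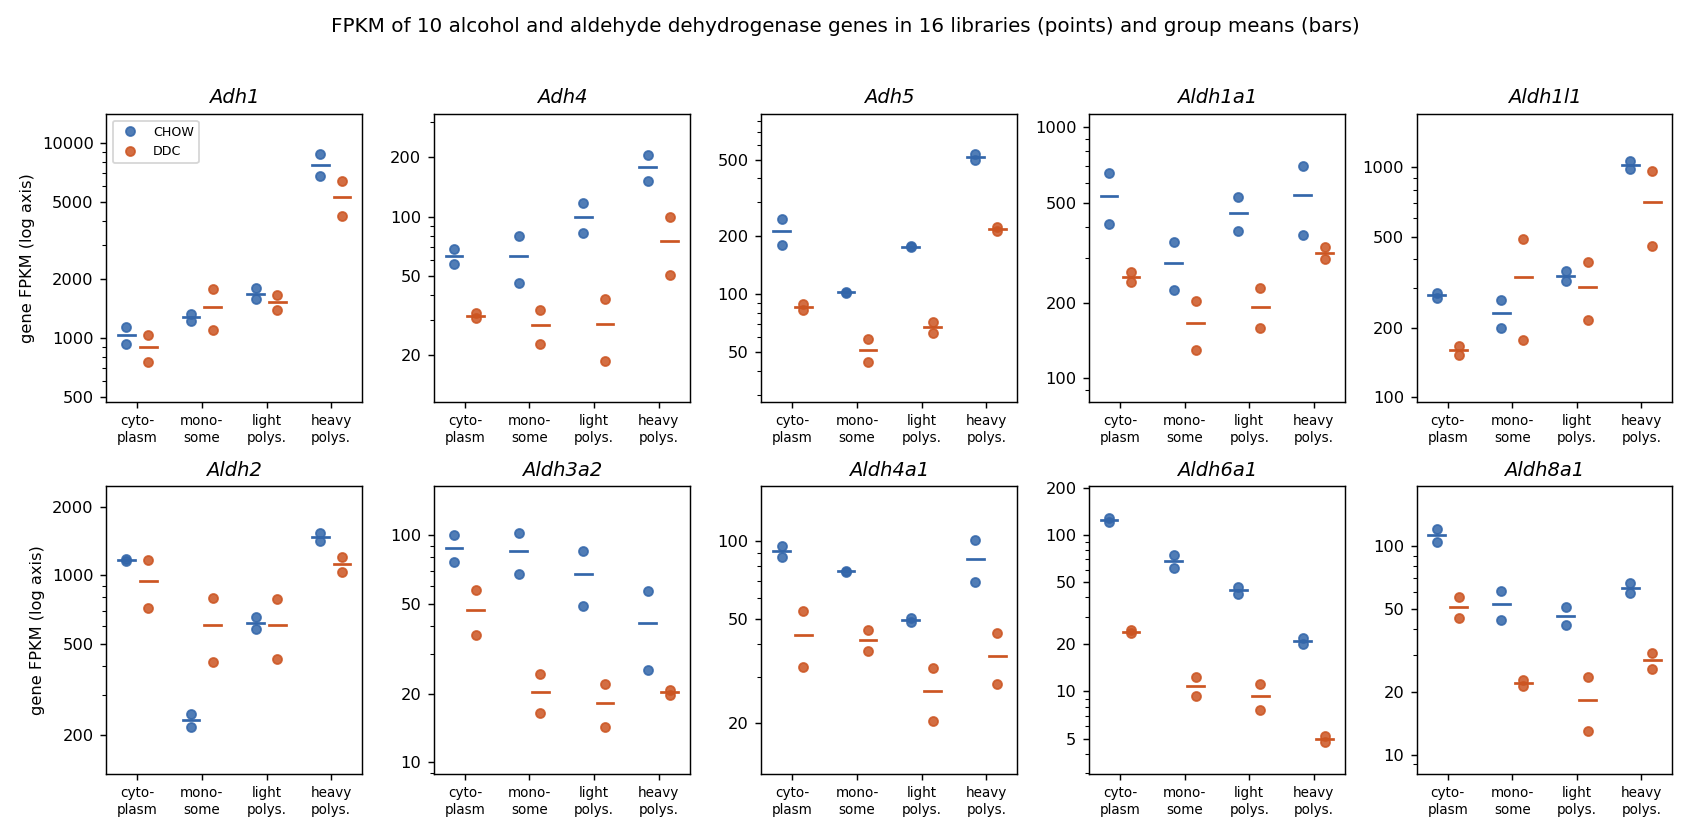
FPKM of each of the 10 genes in all 16 libraries (points, 2 per diet and RNA pool) with the group means (bars), on log axes that differ between panels; blue is chow and orange is DDC. Adh1 reaches 8766 FPKM on chow heavy polysomes, while Aldh6a1 falls from 128 FPKM in chow cytoplasm to 4.76 FPKM on DDC heavy polysomes.

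The alcohol dehydrogenases Adh1, Adh4 and Adh5 lie on the plus strand of chromosome 3 (GRCm38), with Adh6a and Adh6b between Adh1 and Adh4. They run from 138260991 to 138290698, from 138415466 to 138430892 and from 138443093 to 138455499. Adh1 encodes the main liver enzyme for ethanol and also acts on retinol. In cytoplasm it stood at 929 and 1134 FPKM on chow and at 1040.4 and 753 FPKM on DDC, and on monosomes at 1323 and 1222 on chow and 1772 and 1102 on DDC. On light polysomes it stood at 1800.2 and 1575 FPKM on chow and 1664 and 1394 on DDC, and on heavy polysomes at 8766 and 6738 on chow and 6371 and 4233 on DDC. The diets overlapped in every pool but the heavy polysomes, where both DDC libraries were lower. The log2 changes, each with an SE of 0.30, were -0.21 in cytoplasm, 0.14 on monosomes, -0.14 on light polysomes and -0.57 on heavy polysomes, with adjusted p of 0.67, 0.754, 0.754 and 0.203. Adh1 made up 27.8% of the summed FPKM of the 10 members in chow cytoplasm and 67.2% on DDC heavy polysomes.

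Adh4 encodes an enzyme that prefers retinol and longer alcohols to ethanol. Cytoplasmic RNA held it at 57.4 and 68.4 FPKM on chow and at 30.6 and 32.6 FPKM on DDC, and monosomes at 46.0 and 79.9 on chow and 22.7 and 33.8 on DDC. Light polysomes held 82.3 and 117 FPKM on chow and 18.5 and 38.5 on DDC, and heavy polysomes 151 and 206 on chow and 50.6 and 99.3 on DDC. Both DDC libraries were below both chow libraries in each pool. Adh4 fell on light polysomes by 1.84 and on heavy polysomes by 1.30 on the log2 scale (SE 0.41; adjusted p = 0.00577 and 0.0369). The changes in cytoplasm and on monosomes, -0.97 and -1.10, were not called (adjusted p = 0.117 and 0.0538; 0.0128 and 0.00417 with the block). The heavy polysome call was lost without chow replicate 1 (-1.52, adjusted p = 0.0575), chow replicate 2 (-1.08, 0.179) or DDC replicate 1 (-0.82, 0.244), and without the chow libraries of the first preparation (-1.52, 0.107). The light polysome call was lost without chow replicate 2 (-1.58, adjusted p = 0.0561) or DDC replicate 1 (-1.33, 0.0577), and the monosome change passed without chow replicate 1 (-1.49, 0.0372).

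Adh5 encodes the glutathione-dependent formaldehyde dehydrogenase, which also reduces S-nitrosoglutathione. In cytoplasm it stood at 179 and 247 FPKM on chow and at 88.8 and 82.2 FPKM on DDC, and on monosomes at 101 and 103 on chow and 58.1 and 44.1 on DDC. On light polysomes it stood at 176 and 177 FPKM on chow and 72.0 and 63.0 on DDC, and on heavy polysomes at 499.99 and 539.6 on chow and 224 and 212 on DDC. Each DDC library was below each chow library of its pool. The falls were 1.29, 1.00, 1.38 and 1.25 on the log2 scale from cytoplasm to heavy polysomes (SE 0.21; adjusted p = 0.0015, 0.00366, 0.000677 and 0.00142). All 4 calls held without any 1 library and without the chow libraries of the first preparation, and the one on heavy polysomes was lost with quantile normalization (-0.69, adjusted p = 0.0501). When only the groups compared were fitted, the monosome and heavy polysome values of Adh5 also missed the threshold (adjusted p = 0.0604 and 0.0558).

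Adh1 and Adh5 are each listed with a full-length coding transcript and a shorter one that the annotation marks for nonsense-mediated decay. Adh1-202 is 1115 bases long against 1492 in the full-length Adh1-201 and starts elsewhere, and Adh5-207 is 956 bases long against 1604 in Adh5-201, lacks 2 of its exons and ends elsewhere. The exons with the internal bases that the shorter transcripts skip are shown, since they are part of what separates the transcripts valued below. Exons 2 and 3 of each full-length transcript are printed from GRCm38, plus strand, with the bases that the shorter transcript lacks in capitals. The capitals cover 220 bases in Adh1, of which 81 are the end of exon 2, and 142 bases, all of exon 3, in Adh5. Both lengths leave a remainder of 1 when divided by 3, the length of a codon.
Adh1 exons 2 (chr3:138279731-138279832) and 3 (chr3:138280374-138280512): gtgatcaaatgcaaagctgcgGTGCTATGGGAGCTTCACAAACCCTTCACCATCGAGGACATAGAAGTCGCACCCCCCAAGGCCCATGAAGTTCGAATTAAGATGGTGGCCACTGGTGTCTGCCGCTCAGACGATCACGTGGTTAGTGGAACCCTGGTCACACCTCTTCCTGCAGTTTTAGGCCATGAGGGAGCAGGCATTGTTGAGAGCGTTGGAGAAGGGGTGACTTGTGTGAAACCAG
Adh5 exons 2 (chr3:138445290-138445391) and 3 (chr3:138447083-138447224): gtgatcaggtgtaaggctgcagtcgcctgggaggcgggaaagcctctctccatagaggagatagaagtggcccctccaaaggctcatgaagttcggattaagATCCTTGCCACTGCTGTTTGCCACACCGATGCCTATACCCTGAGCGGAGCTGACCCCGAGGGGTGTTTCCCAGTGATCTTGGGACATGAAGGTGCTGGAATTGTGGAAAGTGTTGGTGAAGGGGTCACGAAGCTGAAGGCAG

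The full-length Adh1-201 stood at 690 and 749 FPKM in chow cytoplasm and at 527 and 554 FPKM in DDC cytoplasm, lower on DDC. On monosomes it stood at 319 and 215 FPKM on chow and 641 and 416 on DDC, and on light polysomes at 239.8 and 176 on chow and 456 and 476 on DDC, higher on DDC in both. The shorter Adh1-202 was lower on DDC on light polysomes, at 1559.6 and 1399 against 1207 and 918 FPKM, and on heavy polysomes, at 6607 and 5032 against 4835 and 2435 FPKM. It held 75.9% and 82.4% of the gene's FPKM on chow monosomes and 63.8% and 62.2% on DDC monosomes, and on light polysomes 86.6% and 88.8% against 72.5% and 65.8%. In cytoplasm and on heavy polysomes its shares overlapped between the diets, and no test of the shares was made. With protein-coding transcripts alone, Adh1 rose on monosomes by 0.98 on the log2 scale (adjusted p = 0.0156), and its light polysome value turned from -0.14 to 1.18 (adjusted p = 0.00721). Adh5-201 was lower on DDC in all 4 pools, for example 173 and 161 against 32.9 and 28.8 FPKM on light polysomes. The shorter Adh5-207 was listed at 0 in both chow monosome libraries and at 19.2 and 14.96 FPKM on DDC monosomes, while on heavy polysomes it was lower on DDC, at 217 and 235 against 96.4 and 101 FPKM. How fragments were shared between overlapping transcripts is not given in the sources used here, so the values of single transcripts are less sure than those of genes.

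**Figure D3:**
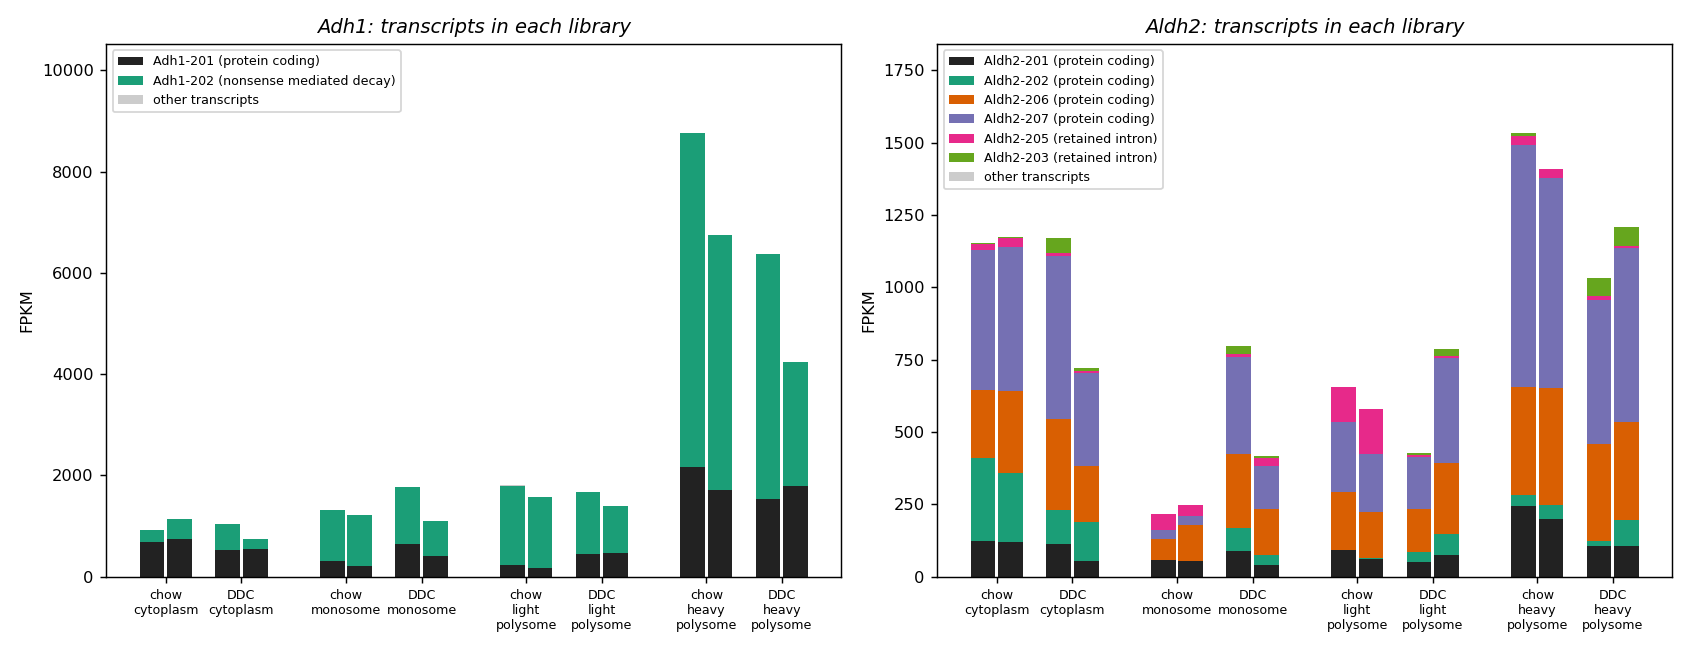
Stacked FPKM of the transcripts of Adh1 (left) and Aldh2 (right) in each of the 16 libraries, 2 bars per diet and RNA pool; the y axes start at 0 and differ between panels. The shorter Adh1-202 makes up most of the Adh1 bars on heavy polysomes, and the short Aldh2-207 is low on chow monosomes, at 31.7 and 29.5 FPKM.

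Aldh2, on the minus strand of chromosome 5 from 121566027 to 121593824, encodes the mitochondrial enzyme that removes most acetaldehyde. In cytoplasm it stood at 1154 and 1175 FPKM on chow and at 1171 and 719.7 FPKM on DDC, and on light polysomes at 655 and 580.1 on chow and 428 and 787 on DDC. On monosomes it stood at 216 and 248 FPKM on chow and at 797 and 418 FPKM on DDC, and on heavy polysomes at 1534 and 1409 on chow and 1033 and 1208 on DDC. DDC libraries were thus both higher on monosomes and both lower on heavy polysomes, and the diets overlapped in the other pools. On monosomes Aldh2 rose by 1.32 on the log2 scale (SE 0.35; 95% interval 0.54 to 2.09; adjusted p = 0.0126). This call was lost without chow replicate 1 (1.22, adjusted p = 0.0621), without DDC replicate 1 (0.85, 0.11) and without the chow libraries of the first preparation (1.22, 0.152). The changes of -0.34 in cytoplasm, -0.09 on light polysomes and -0.40 on heavy polysomes were not called (adjusted p = 0.541, 0.881 and 0.46).

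The monosome rise of Aldh2 lay in its shorter transcripts. Aldh2-207, of 623 nucleotides against 3867 in the full-length Aldh2-201, stood at 31.7 and 29.5 FPKM on chow monosomes and at 333 and 149 on DDC monosomes. Aldh2-206, of 802 nucleotides, stood at 72.0 and 123 FPKM on chow and 259 and 159 on DDC there. Aldh2-202, of 1799 nucleotides, stood at 0.0442 and 1.79 on chow and 77.5 and 33.0 on DDC. It has 1413 annotated coding bases against 1557 in Aldh2-201. All 3 of these shorter transcripts were higher in both DDC monosome libraries. Aldh2-201 overlapped between the diets, at 57.8 and 54.0 against 89.0 and 40.8 FPKM. With the transcript of the longest coding sequence alone, the monosome change of Aldh2 was 0.11 (adjusted p = 0.861) and not called. On heavy polysomes Aldh2-201 was lower on DDC, at 245 and 199 against 105 and 107 FPKM. Of 2 transcripts that keep an intron, Aldh2-205 was lower on DDC in all 4 pools, for example 121 and 158 against 6.54 and 6.55 FPKM on light polysomes, and Aldh2-203 was higher in all 4, for example 10.3 and 0.783 against 62.2 and 65.3 FPKM on heavy polysomes.

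Aldh1a1, on the plus strand of chromosome 19 from 20492715 to 20643465, encodes a cytosolic enzyme that turns retinal into retinoic acid. Cytoplasmic RNA held it at 409.5 and 656 FPKM on chow and at 265 and 241 FPKM on DDC, and monosomes at 225 and 348 on chow and 202 and 129 on DDC. Light polysomes held 387 and 524 FPKM on chow and 158 and 228 on DDC, and heavy polysomes 371 and 703 on chow and 299 and 332 on DDC. Both DDC libraries were below both chow libraries in each pool, with a wide gap between the chow libraries. Aldh1a1 fell on light polysomes by 1.24 on the log2 scale (SE 0.37; adjusted p = 0.025). This call was lost without chow replicate 1 (-1.46, adjusted p = 0.0522), chow replicate 2 (-1.02, 0.16) or DDC replicate 1 (-0.98, 0.146), and without the chow libraries of the first preparation (-1.46, 0.0502). The changes of -1.03 in cytoplasm, -0.79 on monosomes and -0.69 on heavy polysomes were not called (adjusted p = 0.0676, 0.116 and 0.204; the first 2 were 0.0126 and 0.0301 with the block). Of the 50-base windows of its transcript, 7.535% also occur in the neighbouring paralog Aldh1a7, so a small part of its fragments could be assigned to either gene.

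Aldh3a2, on the minus strand of chromosome 11 from 61223417 to 61267464, encodes the fatty aldehyde dehydrogenase of the endoplasmic reticulum. In cytoplasm it stood at 101 and 76.2 FPKM on chow and at 57.5 and 36.4 FPKM on DDC, and on monosomes at 103 and 67.3 on chow and 24.4 and 16.5 on DDC. On light polysomes it stood at 85.6 and 49.1 FPKM on chow and 22.2 and 14.3 on DDC, and on heavy polysomes at 57.0 and 25.5 on chow and 19.8 and 20.8 on DDC. DDC was lower in both libraries of every pool, with the widest gap on monosomes. Aldh3a2 fell on monosomes by 2.00 and on light polysomes by 1.81 on the log2 scale (SE 0.42; adjusted p = 0.00313 and 0.00664). The light polysome call was lost without chow replicate 1 (-1.41, adjusted p = 0.0722), without DDC replicate 2 (-1.51, 0.0568) and without the chow libraries of the first preparation (-1.41, 0.0607). The changes of -0.92 in cytoplasm and -0.88 on heavy polysomes were not called (adjusted p = 0.139 and 0.15; 0.0146 and 0.0163 with the block), and the latter passed without chow replicate 2 (-1.44, 0.046).

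Most Aldh3a2 FPKM on the gradient belonged to Aldh3a2-208, a transcript with 382 annotated coding bases, against 1452 in the full-length Aldh3a2-202. On monosomes Aldh3a2-208 stood at 100.3 and 63.3 FPKM on chow and 22.6 and 14.3 on DDC, and Aldh3a2-202 at 2.31 and 3.83 on chow and 1.85 and 2.22 on DDC. In cytoplasm the pair was closer on chow, at 53.9 and 50.1 FPKM for Aldh3a2-208 and 45.8 and 25.3 FPKM for Aldh3a2-202. With Aldh3a2-202 alone, the cytoplasmic change was -1.45 (adjusted p = 0.0197), and the monosome and light polysome calls were lost (-0.40 and -0.94, adjusted p = 0.424 and 0.0825).

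Aldh1l1, on the plus strand of chromosome 6 from 90486427 to 90600203, encodes formyltetrahydrofolate dehydrogenase, which releases formyl groups as carbon dioxide. Cytoplasmic RNA held it at 285 and 271 FPKM on chow and at 168 and 153 FPKM on DDC, and monosomes at 200.2 and 266 on chow and 487 and 178 on DDC. Light polysomes held 319.5 and 356 FPKM on chow and 389.6 and 217 on DDC, and heavy polysomes 984 and 1064 on chow and 962 and 455 on DDC. DDC was lower in both cytoplasmic and both heavy polysome libraries, and the first DDC library was the highest of its pool on monosomes and light polysomes. The changes of -0.79, 0.35, -0.21 and -0.63 from cytoplasm to heavy polysomes (SE 0.45) were not called (adjusted p = 0.245, 0.57, 0.758 and 0.348). With the block that leaves out DDC cytoplasm, the cytoplasmic and heavy polysome values of Aldh1l1 passed (adjusted p = 0.0134 and 0.0359).

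Aldh4a1, on the plus strand of chromosome 4 from 139622866 to 139649690, encodes the mitochondrial enzyme that makes glutamate in the last step of proline breakdown. In cytoplasm it stood at 95.3 and 86.4 FPKM on chow and at 53.9 and 32.6 FPKM on DDC, and on monosomes at 75.7 and 76.7 on chow and 37.9 and 45.3 on DDC. On light polysomes it stood at 50.3 and 48.8 FPKM on chow and 32.5 and 20.4 on DDC, and on heavy polysomes at 101 and 69.7 on chow and 44.3 and 28.1 on DDC. The diets did not overlap in any pool. The falls were 1.09, 0.86, 0.92 and 1.23 on the log2 scale from cytoplasm to heavy polysomes (SE 0.31; adjusted p = 0.0264, 0.0481, 0.0441 and 0.0135).

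The Aldh4a1 calls lay close to the threshold and rested on both replicates. In cytoplasm the call was lost without chow replicate 1 (-1.02, adjusted p = 0.131), chow replicate 2 (-1.16, 0.0954) or DDC replicate 2 (-0.74, 0.218). On monosomes it was lost without any of the 4 libraries (-0.99 to -0.74, adjusted p = 0.0848 to 0.178). The light polysome call was lost without chow replicate 1 (-0.90, 0.153), chow replicate 2 (-0.94, 0.139) or DDC replicate 2 (-0.60, 0.266), and on heavy polysomes without chow replicate 1 (-0.96, 0.094) or DDC replicate 2 (-0.91, 0.112). Without the chow libraries of the first preparation all 4 Aldh4a1 calls were lost (-1.02, -0.87, -0.90 and -0.96; adjusted p = 0.211, 0.191, 0.221 and 0.199). Of the 50-base windows of its transcript, 45% also occur in the overlapping read-through gene Gm21969, which was listed at 0 in all libraries.

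Aldh6a1, on the minus strand of chromosome 12 from 84430717 to 84451004, encodes methylmalonate semialdehyde dehydrogenase, the mitochondrial enzyme that ends the breakdown of valine and thymine. Cytoplasmic RNA held it at 128 and 121 FPKM on chow and at 23.6 and 24.6 FPKM on DDC, and monosomes at 75.0 and 61.6 on chow and 12.4 and 9.32 on DDC. Light polysomes held 46.4 and 42.2 FPKM on chow and 11.1 and 7.56 on DDC, and heavy polysomes 21.9 and 20.2 on chow and 4.76 and 5.18 on DDC. Every DDC library was well below the chow libraries of its pool, and replicates lay close together. The falls were 2.32, 2.55, 2.15 and 1.88 on the log2 scale from cytoplasm to heavy polysomes (SE 0.22; adjusted p = 4.14e-05, 1.72e-05, 5.49e-05 and 0.000112). All 4 calls held without any 1 library and without the chow libraries of the first preparation.

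Aldh8a1, on the plus strand of chromosome 10 from 21377291 to 21396585, encodes an enzyme of the kynurenine pathway of tryptophan breakdown that can also oxidise retinal. In cytoplasm it stood at 121 and 105 FPKM on chow and at 57.0 and 45.3 FPKM on DDC, and on monosomes at 61.3 and 44.3 on chow and 21.3 and 22.8 on DDC. On light polysomes it stood at 51.0 and 41.9 FPKM on chow and 23.6 and 13 on DDC, and on heavy polysomes at 59.8 and 66.4 on chow and 30.8 and 25.9 on DDC. No DDC library reached the chow libraries of its pool. The falls were 1.14, 1.21, 1.35 and 1.13 on the log2 scale from cytoplasm to heavy polysomes (SE 0.28; adjusted p = 0.0126, 0.00549, 0.00359 and 0.0108). In cytoplasm the call was lost without chow replicate 1 (-1.04, adjusted p = 0.0876), chow replicate 2 (-1.23, 0.0517) or DDC replicate 2 (-0.97, 0.103), and on heavy polysomes without chow replicate 2 (-1.06, 0.0622) or DDC replicate 2 (-1.01, 0.0678). Without the chow libraries of the first preparation all 4 Aldh8a1 calls were lost (-1.04, -0.98, -1.21 and -1.21; adjusted p = 0.145, 0.101, 0.0753 and 0.0786).

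Bases before the start sites are shown for the 4 genes called lower in every pool. Those of Adh1, which was called lower in none, are shown beside them. The 4 share these calls and not their ratio of heavy polysomes to monosomes. The sign of the change does not set them apart, since Adh4, Aldh1a1 and Aldh3a2 also had negative changes in all 4 pools. For these genes too, both DDC libraries lay below both chow libraries in each pool. Several calls of Aldh4a1 and Aldh8a1 were lost when a library was left out. The bases are printed from RefSeq on GRCm38.p6, along the gene's strand and leaving out bases annotated as exon. For Adh5 and Aldh6a1, which have 2 windows each, the one nearest to the start of the gene is printed. Capitals mark matches on either strand to CCAAT or to GGGCGG, known as the CCAAT box and the GC box.
Adh5, chr3:138442843-138443092, plus strand: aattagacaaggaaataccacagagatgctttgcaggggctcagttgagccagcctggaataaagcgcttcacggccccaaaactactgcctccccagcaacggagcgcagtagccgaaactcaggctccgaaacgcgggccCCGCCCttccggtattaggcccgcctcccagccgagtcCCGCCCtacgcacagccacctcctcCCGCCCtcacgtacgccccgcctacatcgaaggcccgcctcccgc
Aldh4a1, chr4:139622644-139622865, plus strand: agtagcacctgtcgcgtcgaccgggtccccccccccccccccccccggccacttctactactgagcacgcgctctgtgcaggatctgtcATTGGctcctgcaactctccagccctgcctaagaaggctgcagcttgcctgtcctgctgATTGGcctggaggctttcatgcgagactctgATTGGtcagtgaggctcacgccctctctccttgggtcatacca
Aldh6a1, chr12:84451025-84451274, minus strand: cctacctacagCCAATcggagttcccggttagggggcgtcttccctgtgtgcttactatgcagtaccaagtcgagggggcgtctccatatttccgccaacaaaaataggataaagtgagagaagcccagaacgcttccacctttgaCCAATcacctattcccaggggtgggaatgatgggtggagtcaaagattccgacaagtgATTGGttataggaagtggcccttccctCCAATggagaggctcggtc
Aldh8a1, chr10:21377050-21377290, plus strand: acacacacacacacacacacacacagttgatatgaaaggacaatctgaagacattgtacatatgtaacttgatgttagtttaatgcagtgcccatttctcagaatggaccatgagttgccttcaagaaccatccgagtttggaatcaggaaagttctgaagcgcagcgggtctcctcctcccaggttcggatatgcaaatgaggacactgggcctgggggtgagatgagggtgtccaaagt
Adh1, chr3:138277335-138277493, plus strand: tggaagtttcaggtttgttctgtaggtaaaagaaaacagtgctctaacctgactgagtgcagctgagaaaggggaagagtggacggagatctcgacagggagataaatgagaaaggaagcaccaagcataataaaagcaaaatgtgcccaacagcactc

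None of the motifs searched was in all of the printed windows. Adh5 held 3 GC boxes, Aldh4a1 held 3 CCAAT boxes and Aldh6a1 held 4, while Aldh8a1 and Adh1 held neither. The other window of Adh5 held 1 TATA box and 0 GC boxes, and that of Aldh6a1 held 1 CCAAT box and 1 AGGTCA. The table matched 9 of the 10 members, with 12 windows. Aldh2 had no entry. Over the 250 bases before the start sites, CCAAT occurred in 7 of the 12 windows, of 6 of the 9 genes, and in 33.85% of all 32851 promoters. GGGCGG occurred in 3 of the 12 windows and in 32.74% of promoters. The TATA box TATAAA occurred in 1 window and in 12.37% of promoters, the nuclear receptor half-site AGGTCA in 3 and 14.02%, and the C/EBP core TTGCNNAA in 2 and 9.564%. The antioxidant response element core TGACNNNGC occurred in 0 of the 12 windows and in 10.16% of promoters. All motifs were searched on both strands, and AGGTCA read on the other strand can overlap TGACNNNGC.

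Heavy polysomes carry mRNA with many ribosomes and monosomes carry mRNA with 1. FPKM are scaled to library size, so the ratio of the pools compares a gene's level relative to the other RNA of each pool. It does not give the amount of a gene's RNA in each fraction. The 3 alcohol dehydrogenases, Aldh2 and Aldh1l1 stood higher on heavy polysomes than on monosomes in chow, and Aldh6a1 and Aldh3a2 lower. In chow 5 of the 10 members were called higher on heavy polysomes and 2 lower, against 23.7% and 21.0% of all tested genes. In DDC 3 were called higher and 1 lower, against 18.2% and 14.5%. The members' median log2 difference, heavy polysomes minus monosomes, was 1.19 in chow and 0.96 in DDC, with medians of 0 over all genes. With equal library totals the medians of all genes were -0.37 in both diets, and those of the members 0.40 in chow and 0.36 in DDC.

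In chow the called rises on heavy polysomes over monosomes were 2.59 for Adh1, 1.52 for Adh4, 2.33 for Adh5, 2.14 for Aldh1l1 and 2.66 for Aldh2 on the log2 scale (SE 0.30, 0.41, 0.21, 0.45 and 0.35; adjusted p = 4.88e-05, 0.00988, 1.3e-05, 0.00231 and 0.000111). Aldh6a1 was lower there by 1.65 (SE 0.22; adjusted p = 0.000122) and Aldh3a2 by 1.10 (SE 0.42; adjusted p = 0.0484). For these 7 genes the 2 chow heavy polysome libraries lay wholly above or below the 2 chow monosome libraries. How many of all genes did so was not counted. The changes of 0.87 for Aldh1a1, 0.14 for Aldh4a1 and 0.27 for Aldh8a1 were not called (adjusted p = 0.0796, 0.767 and 0.47), and those of Aldh4a1 and Aldh8a1 turned negative with equal library totals (-0.65 and -0.51). The lower value of Aldh3a2 rested on its short transcript: with Aldh3a2-202 alone the value was 1.00, higher on heavy polysomes (adjusted p = 0.0433). It was also lost without chow monosome replicate 1 (-0.80, adjusted p = 0.244), monosome replicate 2 (-1.40, 0.0519) or heavy polysome replicate 2 (-0.54, 0.368). The rise of Adh4 was lost without monosome replicate 1 (1.13, 0.0889) or heavy polysome replicate 2 (1.30, 0.0647), with equal library totals (0.73, 0.178) and with quantile normalization (0.61, 0.262), and that of Aldh1l1 with quantile normalization (1.06, 0.0866). The value of Aldh1a1 passed without heavy polysome replicate 1 (1.32, 0.0279) and with the block (0.87, 0.0171). Without the first preparation Adh4, Aldh1l1 and Aldh3a2 were no longer called (1.35, 2.00 and -1.36; adjusted p = 0.155, 0.112 and 0.0754).

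In DDC the called rises were 1.89 for Adh1, 1.32 for Adh4 and 2.08 for Adh5 on the log2 scale (adjusted p = 0.00076, 0.0278 and 6.71e-05), and Aldh6a1 was lower on heavy polysomes by 0.98 (adjusted p = 0.00579). Aldh1a1, Aldh1l1 and Aldh2 had values of 0.96, 1.16 and 0.95 that were not called (adjusted p = 0.0672, 0.0677 and 0.058). Without DDC monosome replicate 1 the values of Aldh1l1 (1.89, adjusted p = 0.0101) and Aldh2 (1.42, 0.0195) passed, and Aldh1l1 also passed without heavy polysome replicate 2 (1.70, 0.0295). Both Aldh1a1 and Aldh1l1 passed with the block (adjusted p = 0.0138 and 0.00707). The rise of Adh4 was lost without monosome replicate 1 (1.05, adjusted p = 0.156) or heavy polysome replicate 2 (0.84, 0.201), with equal library totals (0.74, 0.184) and quantile normalization (0.87, 0.127), and without the chow libraries of the first preparation (1.32, 0.0648). Aldh3a2, Aldh4a1 and Aldh8a1 stood at 0.02, -0.23 and 0.34 (adjusted p = 0.989, 0.621 and 0.373).

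**Figure D4:**
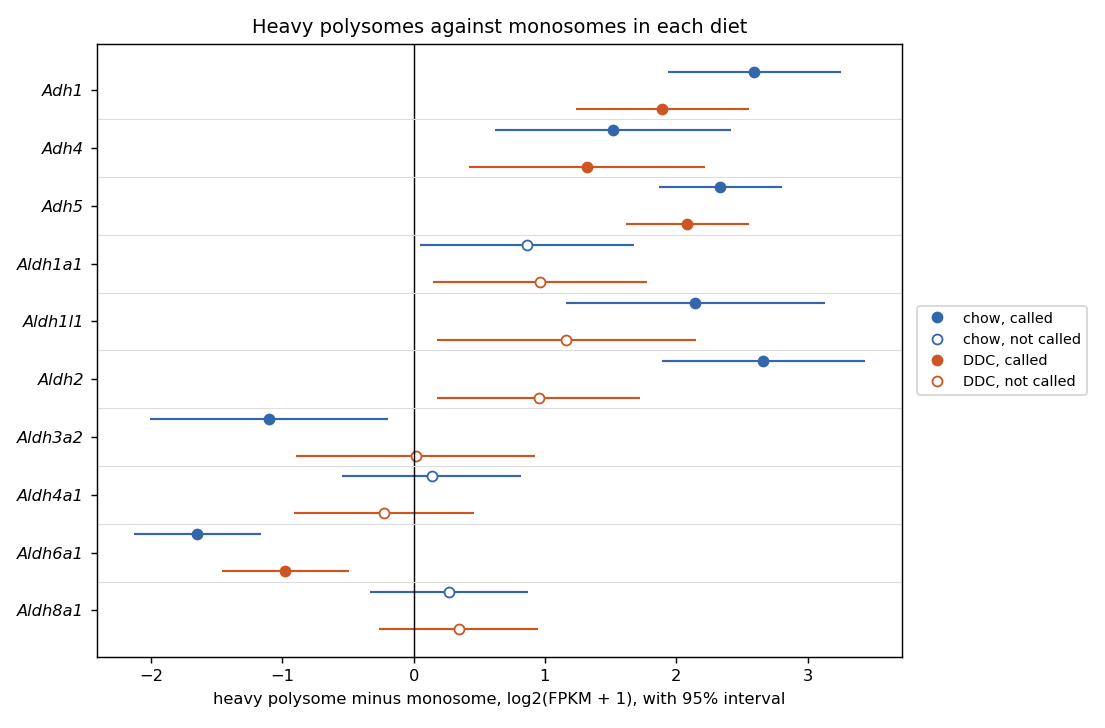
Heavy polysome minus monosome on the log2(FPKM + 1) scale for each of the 10 genes (rows), with its 95% interval, in chow (blue) and DDC (orange); filled points were called at an adjusted p below 0.05. The intervals of most genes lie near each other in both diets, and Aldh2 has the widest gap, from 2.66 in chow to 0.95 in DDC.

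Whether the ratios between pools differed between the diets was tested as the difference of differences. By limma 0 of the 10 members were called for heavy polysomes against monosomes, with 1 at an unadjusted p below 0.05, against 1.85% of all tested genes called in either direction. That 1 member was Aldh2, at -1.71 on the log2 scale (SE 0.50; 95% interval -2.81 to -0.62; adjusted p = 0.0883). The other members lay between -0.98 for Aldh1l1 and 1.12 for Aldh3a2 (adjusted p = 0.417 and 0.312). For heavy polysomes against cytoplasm 0 of the 10 were called by limma and 0 had an unadjusted p below 0.05, against 0.102% of all tested genes called. There the members lay between -0.35 for Adh1 and 0.44 for Aldh6a1 (SE 0.43 and 0.31).

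The order of the 8 groups by mean differed between members. Chow heavy polysomes were the highest group for Adh1, Adh4, Adh5, Aldh1l1 and Aldh2, where their libraries did not overlap those of the next group, and for Aldh1a1, where they overlapped chow cytoplasm. Chow cytoplasm was the highest for Aldh3a2, Aldh4a1, Aldh6a1 and Aldh8a1. For Aldh6a1 and Aldh8a1 it did not overlap the next group, and for Aldh3a2 and Aldh4a1 it did. The mean of Adh1 ran from 897 FPKM in DDC cytoplasm to 7752 FPKM on chow heavy polysomes, and that of Aldh6a1 from 4.97 FPKM on DDC heavy polysomes to 125 FPKM in chow cytoplasm. Across the 16 libraries, which share diet and RNA pool, Pearson's r of a member's log2(FPKM + 1) with the mean of the other 9 was highest for Adh5 (0.894) and Aldh1a1 (0.845) and lowest for Adh1 (0.319) and Aldh6a1 (0.331).

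Of the 18 other Adh and Aldh genes 9 passed the filter, and the highest level among those that did not was 1.036 FPKM, for Adh7. The 9 went both ways: 3 were called lower and 3 higher in cytoplasm, 2 and 1 on monosomes, 2 and 1 on light polysomes, and 2 and 3 on heavy polysomes. Adhfe1, which oxidises hydroxybutyrate in mitochondria, fell in all 4 pools, by 1.38 on the log2 scale in cytoplasm and 1.45 on heavy polysomes (adjusted p = 0.00192 and 0.00109). Aldh9a1, which acts in carnitine synthesis, also fell in all 4, with means of 83.4 and 42.2 FPKM in chow and DDC cytoplasm (adjusted p = 0.0324) and 68.9 and 29.5 FPKM on heavy polysomes (0.0101). Aldh5a1, which ends the breakdown of GABA, was called lower in cytoplasm alone, from 8.49 to 4.45 FPKM (adjusted p = 0.0352). Aldh1a7, the paralog beside Aldh1a1, rose in cytoplasm from 44.0 to 106 FPKM and on heavy polysomes from 65.9 to 138 FPKM (adjusted p = 0.0182 and 0.0299), where Aldh1a1 was lower in both DDC libraries. Aldh3b1 rose from 0.319 to 1.68 FPKM in cytoplasm (adjusted p = 0.0442 by limma). Aldh18a1, which acts in proline synthesis, rose there from 0.0715 to 1.47 FPKM (adjusted p = 0.00199). Its chow means were 0.149 FPKM or lower in each pool, so Aldh18a1 passed the filter through DDC libraries alone. It could thus only be called higher in any pool. Its rises, counted among the 3 in cytoplasm and the 3 on heavy polysomes, are no test of direction. Aldh3b1 also stood below 1 FPKM in chow cytoplasm, which left little room for a fall there. Aldh1b1, Aldh7a1 and Aldh16a1 were called in no pool.

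**Figure D5:**
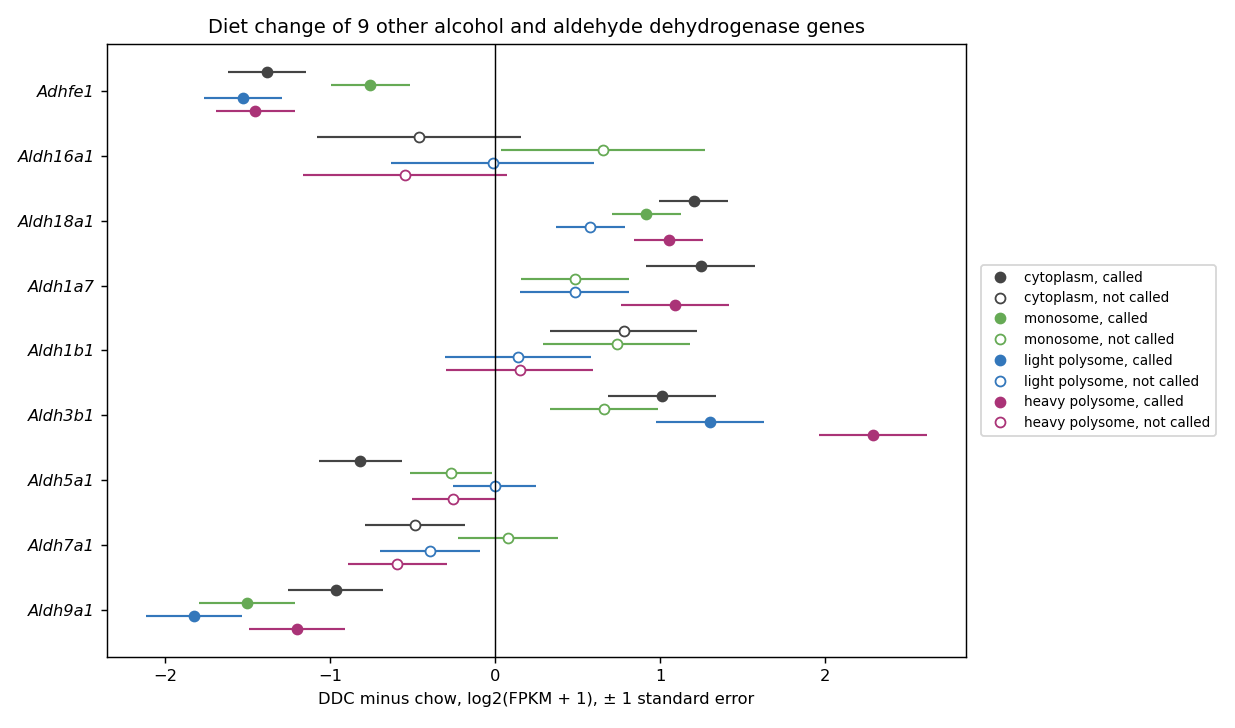
DDC minus chow on the log2(FPKM + 1) scale in each RNA pool for the 9 other Adh and Aldh genes past the filter, with bars of ± 1 standard error. Filled points were called at an adjusted p below 0.05. Adhfe1 and Aldh9a1 lie left of 0 in all 4 pools, while Aldh18a1 and Aldh3b1 lie right of it.

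Genes that share a pathway with the members were counted in lists. The shares to read the counts against are those over all tested genes, 9.66% lower and 12.7% higher in cytoplasm, 15.9% and 21.1% on monosomes, 13.5% and 16.6% on light polysomes and 10.9% and 13.9% on heavy polysomes. Of 26 tested genes of valine and pyrimidine breakdown, the pathway that Aldh6a1 ends, 18 were called lower and 0 higher in cytoplasm. By limma 0 rose in cytoplasm at an unadjusted p below 0.05 as well. The counts were 17 and 0 on monosomes, with 1 rise at an unadjusted p below 0.05, 19 and 1 on light polysomes and 14 and 1 on heavy polysomes. Their median log2 change was -1.32 in cytoplasm and -1.10 on heavy polysomes, against 0.01 and 0.02 over all genes. Hibadh, the dehydrogenase just before Aldh6a1, stood at 247 and 229 FPKM in chow cytoplasm and 55.9 and 53.8 in DDC cytoplasm and fell by 2.10 (adjusted p = 0.000128). Dpyd, the first enzyme of pyrimidine breakdown, stood at 106 and 113 against 19.3 and 20.1 FPKM and fell by 2.41 (adjusted p = 0.000354). Ppm1k, the phosphatase that switches on branched-chain keto acid oxidation, also fell by 2.41 (adjusted p = 0.000375).

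Around Aldh8a1, 8 of 17 tested genes of the kynurenine pathway and NAD synthesis were called lower and 0 higher in cytoplasm, with 7 and 2 on monosomes and 8 and 0 on both polysome pools. At an unadjusted p below 0.05 by limma 0 rose in cytoplasm and on light polysomes and 1 on heavy polysomes. Tdo2, which opens the pathway from tryptophan, stood at 344 and 541 FPKM in chow cytoplasm and 45.0 and 37.2 in DDC cytoplasm and fell by 3.37 (adjusted p = 0.000833). Ido2 fell by 1.91 and Haao, a dioxygenase further down, by 1.65 (adjusted p = 0.000836 and 0.00105). Around Aldh3a2, 6 of 10 tested genes of fatty aldehyde and fatty alcohol metabolism were called lower and 0 higher in cytoplasm, with 5 and 1 on monosomes, 6 and 0 on light and 5 and 0 on heavy polysomes. Rises at an unadjusted p below 0.05 numbered 1 in cytoplasm and 2 on each polysome pool. Slc27a2, a fatty acid transporter and acyl-CoA synthetase, stood at 631 and 718 FPKM in chow cytoplasm and 87.2 and 75.1 in DDC cytoplasm and fell by 3.04 (adjusted p = 5.01e-06). Acsl1, which activates long fatty acids, fell by 2.34 (adjusted p = 0.000487).

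The proline and hydroxyproline list around Aldh4a1 had 4 of 16 tested genes called lower and 0 higher in cytoplasm, 3 and 3 on monosomes, 6 and 2 on light and 5 and 1 on heavy polysomes, and 2 rose in cytoplasm at an unadjusted p below 0.05. Oat, which feeds ornithine into the same intermediate, fell in cytoplasm by 1.70, Hao1, a glycolate oxidase, by 1.77 and Prodh2, hydroxyproline dehydrogenase, by 2.06 (adjusted p = 0.000596, 0.00515 and 0.00845). The folate list around Aldh1l1 had 5 of 32 called lower and 1 higher in cytoplasm, 4 and 4 on monosomes, 6 and 1 on light and 5 and 0 on heavy polysomes, where 3 rose at an unadjusted p below 0.05, so that its share on monosomes was below that of all genes in both directions. Its genes of lowest p in cytoplasm were Mthfd1 at -1.39, Tyms, thymidylate synthase, at 1.86 and Mat1a, which makes S-adenosylmethionine, at -2.50 (adjusted p = 0.0215, 0.024 and 0.0386).

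The lists around the alcohol and retinal enzymes were mixed. Of 23 tested partners in alcohol and aldehyde handling 10 were called lower and 4 higher in cytoplasm, 9 and 6 on monosomes, 10 and 4 on light and 9 and 4 on heavy polysomes. Cyp2e1, the cytochrome that also oxidises ethanol, stood at 2735 and 3850.0 FPKM in chow cytoplasm and 185 and 122 in DDC cytoplasm and fell by 4.42 (adjusted p = 0.000627). The aldo-keto reductase Akr1b7 rose by 3.62, from 0.168 and 0.0691 to 10.3 and 15.9 FPKM, and Akr1c6 fell by 1.76 (adjusted p = 0.000193 and 0.000672). Both chow values of Akr1b7 were below 1 FPKM, so in practice it could only be called higher there. Its rise, counted among the 4 in cytoplasm, is thus no test of direction. Of 28 tested retinoid genes 6 were called lower and 5 higher in cytoplasm, 6 and 7 on monosomes, 7 and 7 on light and 6 and 7 on heavy polysomes. Retsat, retinol saturase, fell by 3.50, from 218 and 220.0 to 22.2 and 15.3 FPKM, while the retinol dehydrogenases Dhrs9 and Rdh9 rose by 1.30 and 2.55 (adjusted p = 2.31e-05, 0.000193 and 0.00046).

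Outside these lists, the 5 genes whose log2(FPKM + 1) ran closest to the mean of the 10 members over the 16 libraries were Hadh, Pipox, Aco1, Bbox1 and Hsd11b1, with Pearson's r of 0.968, 0.967, 0.964, 0.963 and 0.959 among 4266 genes with a mean of at least 10 FPKM. The libraries share diet, RNA pool and scaling, so these values are a description only. Hadh, a dehydrogenase of mitochondrial beta-oxidation, had means of 180.4 and 68.9 FPKM in chow and DDC cytoplasm and 298 and 121 FPKM on heavy polysomes. Pipox, which oxidises pipecolic acid, had means of 153 and 52.8 FPKM in cytoplasm and 180.1 and 64.9 on heavy polysomes. Hsd11b1, which regenerates glucocorticoid, had means of 667 and 138 FPKM in cytoplasm and 874 and 183 on heavy polysomes.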

How the data were processed

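RNA was measured in 16 libraries made with a stranded mRNA kit, per the labels' protocols. The authors deposited FPKM per transcript, scaled between libraries. Per the submitters' processing notes, the tools were Cuffnorm, STAR (2.4.2a), Trimmomatic, Picard (1.119) and bcl2fastq (2.17.1.14), and the build was GRCm38; options are not given in the sources used here. Values are not whole, although the table is named for counts, and depth is unknown.

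Of 117592 transcripts, 99.29% were found in GENCODE M21, and their FPKM were summed per gene. Genes at 0 in both libraries of a group and at a mean of 100 FPKM or more in another group (37 genes, 0 members) were treated as missing there. A model of 8 group means was fitted to log2(FPKM + 1) of 11790 genes with limma 3.58.1 in R 4.3.3 (mean-variance trend, 8 residual degrees of freedom), with Benjamini-Hochberg adjustment over all genes tested. Groups came from the labels. Fold changes on this scale understate changes of low genes. In simulated data for the cytoplasmic comparison, 22% of 100 genes changed by 1 on the log2 scale were called and 75% of 100 changed by 2.

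Replicate numbers follow the preparations named in the labels across the chow fractions and across the DDC fractions. Chow cytoplasm is named CH1 and CH3 and the chow fractions CH1_CH2 and CH3_CH4, so these names overlap only in part. The DDC cytoplasm libraries, C2 and D2, carry other preparation names than the DDC fractions of the same number, B and C. Replicate differences correlated at 0.357 to 0.749 between chow pools, 0.305 to 0.365 between DDC fractions, -0.050 to 0.161 between DDC cytoplasm and DDC fractions, and -0.094 to 0.070 between diets. The alternatives were another pseudocount, filter, scaling, transcript set, sample set, block and variance model, and leaving out each library. Use of the longest coding transcript alone, keeping listed zeros and leaving DDC cytoplasm out of the block were chosen after seeing the data. The members and lists were chosen with earlier results of these data known. By rule, the text names every member and, of each list, the 3 genes of lowest p in the comparison described, with every measured gene of the family list and the 5 genes of most similar pattern. Some genes that this rule would name are not reported here.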

Additional observations from a re-analysis of the deposited data

Results flagged for a closer look

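Of the 10 members, Aldh2 had the largest difference between the diets in its ratio of heavy polysomes to monosomes. The diet change on heavy polysomes minus that on monosomes was -1.71 on the log2(FPKM + 1) scale (SE 0.50; unadjusted p = 0.00514 by limma), which did not pass the adjustment over all genes (adjusted p = 0.0883). Leaving out each library in turn gave -2.18 to -1.25, with adjusted p of 0.0602 to 0.181. Aldh2 was higher in both DDC monosome libraries and lower in both DDC heavy polysome libraries than in the chow libraries. With the transcript of the longest coding sequence alone, its monosome change was 0.11 (adjusted p = 0.861 by limma).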

How the results depend on the processing

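With 2 libraries a group, a change near 1 on the log2 scale is often not called, and the values of Adh1, Aldh2 and Aldh3a2 depend on which transcripts are summed. A test on only the groups compared has few degrees of freedom. Differences in sequenced depth could not be checked. The cause of the changes below was not tested.

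Members called moved by over 1.5 times as follows. In cytoplasm the count went from 4 to 7 with only the groups compared and 7 with the replicate block, to 8 with the block that leaves DDC cytoplasm unblocked, to 2 without the 4 chow libraries of preparation 1, and to 2 to 4 without 1 library. On monosomes it went from 6 to 2 with only the groups compared and 3 without preparation 1. On light polysomes it went from 7 to 3 without preparation 1 and 4 to 5 without 1 library. On heavy polysomes it went from 5 to 2 with equal library totals, 2 with quantile normalization, 0 with only the groups compared (limma; 5 at an unadjusted p below 0.05), 2 without preparation 1 and 3 to 4 without 1 library. For heavy polysomes against monosomes it went from 7 to 4 in chow without preparation 1 and from 4 to 1 in DDC with only the groups compared. Over all genes, calls were 1137 lower and 1492 higher in cytoplasm and 944 and 2366 with equal totals. They were 1876 and 2477 on monosomes against 1296 and 3257, 1587 and 1954 on light polysomes against 994 and 2668, and 1277 and 1638 on heavy polysomes against 515 and 2291. For heavy polysomes against monosomes they were 2476 and 2787 in chow against 3746 and 1313, and 1705 and 2139 in DDC against 3084 and 973.

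The replicate block, with the number nested in diet, added 9 calls and removed none: Adh4, Aldh1a1 and Aldh3a2 in cytoplasm, Adh4 and Aldh1a1 on monosomes, Aldh3a2 on heavy polysomes (-0.88, adjusted p = 0.0163 by limma), and in heavy polysomes against monosomes Aldh1a1 in both diets and Aldh1l1 in DDC. It changed no other call of a member. The block with DDC cytoplasm unblocked, chosen after seeing the data, added these 9 and Aldh1l1 in cytoplasm and on heavy polysomes, and removed none.

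Over all alternatives and members, 1045 values kept their direction and call, 96 were no longer called, 36 became called and 53 changed sign. Of the called values 1 changed sign: Aldh3a2 in chow heavy polysomes against monosomes, at 1.00 with the transcript of the longest coding sequence. All other sign changes were of values that were not called. With quantile normalization the diet change was 0.0057 in cytoplasm and 0.23 on light polysomes for Adh1, 0.21 on light polysomes for Aldh1l1, and 0.41 on light and 0.048 on heavy polysomes for Aldh2. Equal totals gave 0.18 for Adh1, 0.12 for Aldh1l1 and 0.24 for Aldh2 on light polysomes and 0.11 for Aldh2 on heavy polysomes. Adh1 on light polysomes was 1.18 with coding transcripts and with the longest coding sequence, and Aldh2 there was 0.23 with coding transcripts and 0.0016 without preparation 1. Heavy polysomes against monosomes in chow gave -0.16 for Aldh1a1, -0.60 for Aldh4a1 and -0.39 for Aldh8a1 with quantile normalization, -0.65 for Aldh4a1 and -0.51 for Aldh8a1 with equal totals, and -0.14 for Aldh4a1 without preparation 1. In DDC, quantile normalization gave -0.29 for Aldh3a2 and -0.013 for Aldh8a1 and equal totals -0.55 and -0.23. Between diets, the difference of heavy polysomes against monosomes was 0.26 for Adh4 and 0.26 for Adh5 with quantile normalization and 0.011 for Adh4 with equal totals. It was 0.12 for Adh5 with either coding set, -0.17 for Aldh3a2 with the longest coding sequence, and -0.051 for Aldh1a1 and -0.23 for Aldh8a1 without preparation 1.

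Without 1 library, Adh1 ran from -0.45 to 0.019 in cytoplasm and -0.21 to 0.48 on monosomes. Aldh2 ran from -0.69 to 0.0079 in cytoplasm and -0.52 to 0.35 on light polysomes, and Aldh1l1 from -0.37 to 1.08 on monosomes and -0.63 to 0.21 on light polysomes. Heavy polysomes against monosomes ran from -0.13 to 0.40 for Aldh4a1 in chow, and in DDC from -0.25 to 0.28 for Aldh3a2 and -0.55 to 0.095 for Aldh4a1. Their difference between diets ran from -0.68 to 0.28 for Adh4, -0.36 to 0.56 for Aldh1a1 and -0.16 to 0.30 for Aldh8a1.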
